A study of Mus musculus with 2 samples.

Results

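Non-cycling C1q macrophages were taken here as the barcodes whose RNA held the 3 chains of complement C1q and little RNA for proliferation, for osteoclast enzymes or for the neutrophil calprotectin pair. A barcode, which stands for 1 droplet and usually 1 cell, entered when it had at least 5000 UMIs (unique molecular identifiers, counted once per captured RNA molecule), at least 300 genes and at most 10% mitochondrial UMIs. Of its UMIs, at least 0.03% were from C1qa, C1qb and C1qc together, under 0.03% from Mki67 and Top2a, under 0.1% from Acp5 and Ctsk and under 3% from S100a8 and S100a9. The members were thus selected on measured values, the UMI shares of these genes in the same libraries that are compared. These limits kept 659 of the 14896 cells that passed the limits on UMIs, genes and mitochondrial RNA, 427 of 6766 in the DHT library and 232 of 8130 in the Vehicle library.

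The labels name as the source a single wild-type C57BL/6J mouse, male and 3 months old. Its bone marrow cells were plated in medium without hormones with 5 ng/mL M-CSF, the macrophage growth factor. The DHT culture also received 1 nM 5α-dihydrotestosterone, the potent androgen made from testosterone, and the Vehicle culture an equal volume of ethanol. After 48 h both were changed to medium with 100 ng/mL M-CSF, 10 ng/mL human TNF and 30 ng/mL RANKL, which drives osteoclast formation, with DHT or ethanol kept on, and the adherent cells were collected 24 h later for 10x Genomics 3′ single-cell RNA sequencing. The study asked what the androgen does to osteoclast precursors in an inflammatory culture. With 1 library for each treatment there is no replicate, so no difference between them was tested, and treatment, culture and library cannot be told apart. Levels are counts of a gene's UMIs summed over the cells and scaled to 1000000 UMIs in all (CPM), with intervals at 95% that cover counting error only, since reads of PCR copies and cells of 1 culture are not independent samples.

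C1q is the recognition molecule of the classical complement pathway. In most tissues macrophages are its main source, and C1q made by them tags dying cells and debris for uptake, alongside scavenger receptors, Fc receptors and bridging molecules. Macrophages share a bone marrow precursor with osteoclasts, and interferon is known as a brake on osteoclast formation. Type I interferon acts through a receptor and kinases of the JAK family on a complex of transcription factors that includes IRF9, which induces a large set of antiviral genes by binding a short promoter element.

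The genes of macrophages were present in both libraries. C1qa, C1qb and C1qc encode the 3 chains of C1q and lie side by side on mouse chromosome 4 (GRCm38: C1qa 136895917-136898803, C1qc 136889804-136893065, C1qb 136880129-136886187). Since they chose the cells, their levels are a description. C1qa stood at 640 CPM in DHT and 366 in Vehicle, C1qb at 634 and 534, and C1qc at 437 and 295. C1q made up a median of 0.132% of the UMIs of a DHT cell and 0.0764% of a Vehicle cell. Ms4a7, a membrane gene of mature macrophages, was at 564 and 337 CPM, and Apoe, which carries lipid out of macrophages, at 727 and 459. The leading genes of these cells over all others in both libraries included, after the C1q chains, Ms4a7, Pdpn, Apoe, Hmox1, Igf1, Sash1, Cd36, C5ar1 and Ccl2. Of the 8 genes listed as markers of all macrophages, all reached 2 CPM in both libraries, and Lyz2, lysozyme, was the most abundant at 21147 and 20210 CPM. Genes linked with resident macrophages were mixed. Timd4 and Lyve1 had no UMI in any cell, which allows a share of cells with a UMI of up to 0.703% in DHT and 1.29% in Vehicle and does not limit expression below detection. Cd163 had a UMI in 1.41% and 0.862% of the cells, and Folr2 in 63.2% and 59.5%.

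Cells just inside and just outside the C1q limit were close in macrophage RNA in DHT and less so in Vehicle. In DHT, the 38 cells with 0.03% to 0.04% C1q had 323 CPM Ms4a7 and the 55 with 0.02% to 0.03% had 311 CPM. In Vehicle, the 34 cells just inside had 237 CPM Ms4a7 and 311 CPM Apoe, and the 71 just outside 139 and 199 CPM. At 5000 UMIs thinned from each cell, C1qa was seen in 74.9% of DHT and 61.2% of Vehicle members, against 1.95% and 0.596% of the cells high in S100a8 and S100a9, whose RNA should lack it.

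The libraries differed in depth and in the cells around these macrophages. Members had a median of 26866 UMIs (quartiles 13815 and 48542) in DHT and 47839 (31956 and 58818) in Vehicle, and 13888737 and 10354790 UMIs in all. Cells high in S100a8 and S100a9, a neutrophil range, were 28.0% of the DHT and 12.4% of the Vehicle library. The 10 neutrophil markers summed to 1060 CPM in DHT members and 419 CPM in Vehicle members, and 7 of the 8 measured were at least 1.5-fold higher in DHT. These sums were 2.75% and 3.23% of the level over all barcodes. They include Mmp8, at 129 CPM in DHT and 114 in Vehicle members, 137% and 224% of its level over all barcodes. The 9 neutrophil and progenitor genes used to estimate RNA free in the droplets, which leave out Mmp8, gave medians of 2.22% and 1.92%. Monocyte markers summed to 793 and 375 CPM with none at 0. Osteoclast markers summed to 546 and 272 CPM with Calcr at 0 in both, and 361 and 101 CPM of these sums were Mmp9. Of the 6 markers of conventional dendritic cells, which summed to 14.2 and 4.15 CPM, Clec9a and Cd209a were at 0 in both. The part of depth and of these other cell types in the results was not tested, except where the values without free RNA or within ranges of depth are given. A doublet caller marked 7 of the DHT and 1 of the Vehicle members; they were kept. The libraries shared 33 barcodes, of which 1 was a DHT member and 2 were Vehicle members, none in both.

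Members made up a larger share of the cells in the DHT library. In DHT they were 6.31% of the cells that passed the first limits, with a Clopper-Pearson interval of 5.74 to 6.92. In Vehicle they were 2.85% (2.50 to 3.24). The DHT share was 2.21-fold the Vehicle share (1.88 to 2.61). The cycling cells with C1q went the other way, at 3.83% (3.38 to 4.31) of DHT and 4.42% (3.98 to 4.89) of Vehicle cells. Because Mki67, Top2a and C1q set these ranges and themselves differed between the libraries, the shares describe ranges and not counts of a cell type. A stricter C1q limit widened the gap: at 0.1% the members were 261 and 100 cells and the ratio 3.14. Applied to cells thinned to 5000 UMIs, the same limits gave 441 and 265 cells and a ratio of 2.00.

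Across all genes, more were higher in DHT than lower. Of 6434 genes with at least 20 CPM in either library, 299 (4.65%) were at least 1.5-fold higher in DHT and 71 (1.1%) at least 1.5-fold lower, with a median log2 ratio of 0.011. Of the 299, 80 were on the 2 interferon lists, and of the 71, 10 were on the list of G2 and M phase genes. For gene lists a lower limit of 2 CPM was used. Over all 10715 genes at that limit, 7.19% were higher and 3.42% lower, with a median log2 ratio of 0.017. Each count of list members below is to be read beside these shares. The scatter of both libraries shows the interferon genes lifted off the diagonal over the whole range of levels.

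**Figure D1:**
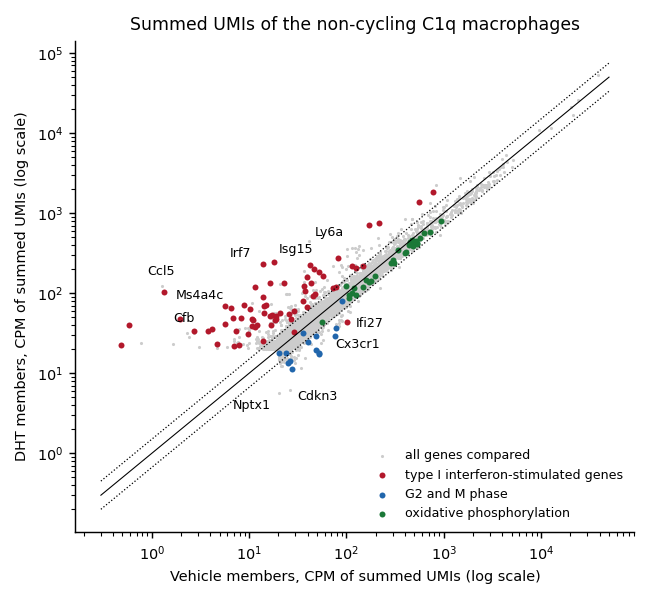
Level of each gene with at least 20 CPM in the non-cycling C1q macrophages of the Vehicle library (x axis, CPM, log scale) and of the DHT library (y axis, CPM, log scale). The solid line marks equal levels and the dotted lines a 1.5-fold difference; 65 of the type I interferon genes (red) drawn here lie above the upper dotted line and Ifi27 lies below the lower one.

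A promoter element was present in part of the interferon genes. The core of the interferon-stimulated response element, GAAANNGAAA, was searched on both strands in the RefSeq windows from 250 bases before to 50 after each gene's start (GRCm38.p6). It was found for 29 of the 62 type I interferon genes with a window (46.8%), for 214 of 5220 genes compared (4.10%) and in 1131 of all 32851 windows (3.44%). Of the 15 genes with the highest ratio, 10 had a window and 3 of these held the core; of the 15 with the lowest ratio, 11 had a window and 1, Cdca3, held it. The 3 are shown with the core in capitals and Irf7 is shown as a leading gene whose window holds none. The windows are Isg15 chr4:156200769-156201068, Ifi213 chr1:173599223-173599522, Ifi206 chr1:173491269-173491568 and Irf7 chr7:141266375-141266674, all on the minus strand and printed 5′ to 3′ along the gene.
Isg15: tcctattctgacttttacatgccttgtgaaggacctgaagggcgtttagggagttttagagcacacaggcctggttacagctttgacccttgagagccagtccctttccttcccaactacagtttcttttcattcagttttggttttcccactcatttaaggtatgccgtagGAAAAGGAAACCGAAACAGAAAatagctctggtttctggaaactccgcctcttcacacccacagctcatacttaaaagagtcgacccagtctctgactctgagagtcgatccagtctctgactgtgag
Ifi213: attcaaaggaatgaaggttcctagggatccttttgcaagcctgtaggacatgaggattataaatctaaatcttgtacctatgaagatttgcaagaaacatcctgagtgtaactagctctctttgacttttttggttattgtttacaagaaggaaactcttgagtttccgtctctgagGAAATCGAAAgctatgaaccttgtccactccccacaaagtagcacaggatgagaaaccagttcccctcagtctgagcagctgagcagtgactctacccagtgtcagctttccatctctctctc
Ifi206: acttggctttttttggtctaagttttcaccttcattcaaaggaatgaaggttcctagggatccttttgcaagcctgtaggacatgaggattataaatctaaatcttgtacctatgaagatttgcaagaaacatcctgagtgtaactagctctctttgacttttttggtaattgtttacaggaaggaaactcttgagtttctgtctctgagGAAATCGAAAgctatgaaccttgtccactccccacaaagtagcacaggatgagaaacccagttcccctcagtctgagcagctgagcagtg
Irf7: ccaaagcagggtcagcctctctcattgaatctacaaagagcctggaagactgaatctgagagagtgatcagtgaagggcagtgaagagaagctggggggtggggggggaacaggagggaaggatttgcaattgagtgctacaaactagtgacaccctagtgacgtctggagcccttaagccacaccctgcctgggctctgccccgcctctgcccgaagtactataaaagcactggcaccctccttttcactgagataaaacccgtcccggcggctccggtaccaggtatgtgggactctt
In Isg15 the core occurs 3 times in overlapping copies, starting 78, 72 and 66 bases before the start site (positions -78, -72 and -66). In Ifi213 it starts at -73 and in Ifi206 at -40. The windows of Ifi213 and Ifi206, 2 neighbouring genes of the interferon-inducible p200 family, share an identical stretch of 135 of their 300 bases. A match is a run of letters and was not tested as a binding site.

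Interferon-stimulated genes as a group were higher in the DHT macrophages. Of 74 measured type I interferon genes, 71 were at least 1.5-fold higher and 1 lower, with a median log2 ratio of 1.84, against 7.19% higher among all genes at this limit. Together they made up 10400 CPM in DHT and 3530 CPM in Vehicle. Summed over the cells, Irf7, the transcription factor that amplifies interferon production (chromosome 7, 141262706-141266481), stood at 230 CPM in DHT and 13.8 in Vehicle, a ratio of 16.6 (14.1 to 19.8). It had a UMI in 78.2% of DHT and 22.8% of Vehicle members. Isg15, a ubiquitin-like modifier (chromosome 4, 156199424-156200818), was at 245 and 17.9 CPM, a ratio of 13.7 (11.8 to 16.0). Ly6a, a surface protein also called Sca-1, was at 450 and 41.5 CPM. The largest ratios belonged to genes nearly silent in Vehicle: Ms4a4c, a membrane gene, was at 104 CPM against 14 UMIs in all Vehicle members (1.35 CPM), and Slfn4, of the Schlafen family, at 39.7 CPM against 6 UMIs (0.579 CPM). Slfn1, Ifi213 and Ifi206 followed at 24.7-fold, 46.8-fold and 30.8-fold. These belong to families of similar genes, so reads may have been split or dropped among copies.

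The most abundant members of the group had smaller ratios. Ifitm3, which blocks virus entry at membranes, was at 1830 CPM in DHT and 769 in Vehicle, a ratio of 2.38 (2.32 to 2.44). Ly6e was at 1392 and 557 CPM and Bst2, tetherin, at 758 and 218 CPM. Each of these 3 had a UMI in at least 96.6% of the members of either library. Zbp1, a sensor of nucleic acids in the Z form, was at 69.6 and 5.60 CPM, Oasl1 at 34.2 and 2.70 and Oasl2 at 120 and 11.4. For Oasl1, 92.9% of the Vehicle UMIs were in 5 cells, while 38.6% of the DHT cells had one. The Vehicle level of Oasl1 thus rests on a few cells. For Zbp1 and Oasl2, 5 cells held 36.2% and 31.4% of the Vehicle UMIs.

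Ifi27 was the exception. This small mitochondrial protein gene carries the name of an interferon-inducible gene, yet it was at 44.1 CPM in DHT and 101 CPM in Vehicle, 2.29-fold lower. It had a UMI in 51.3% of DHT and 81.0% of Vehicle members, and it was lower in DHT in each of 3 C1q ranges (lowest, middle and highest, cut at equal numbers of cells) and in each of 3 ranges of depth. In the cells high in Acp5 and Ctsk it was at 106 and 103 CPM.

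The difference lay in most cells and not in a few. Genes of the type I list gave a median of 0.936% of a cell's UMIs in DHT (interval 0.883 to 1.00) and 0.316% in Vehicle (0.304 to 0.333). The intervals of these medians cover the spread among the cells of 1 library and say nothing of other cultures. The quartiles were 0.599% and 1.37% in DHT and 0.245% and 0.411% in Vehicle, so the lower DHT quartile lay above the upper Vehicle quartile. Of the 427 DHT cells, 306 (71.7%) were above the 95th percentile of Vehicle, 0.647%, and none was below its 5th. Thinned to 5000 UMIs per cell the medians were 0.94% and 0.30%, and 301 DHT cells were above. Single cells stood far out in both libraries, at 9.77% in DHT and 3.87% in Vehicle.

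**Figure D2:**
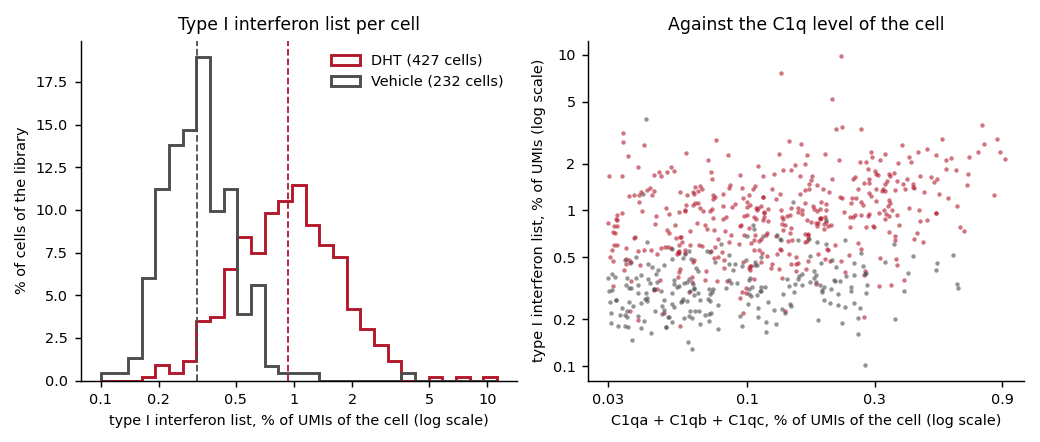
Left, the share of each cell's UMIs from the type I interferon list (x axis, log scale) against the percent of cells of that library (y axis), with dashed lines at the medians of 0.936% (DHT, 427 cells) and 0.316% (Vehicle, 232 cells). Right, the same share (y axis, log scale) against the C1q share of the cell (x axis, log scale), 1 point per cell; DHT cells lie above most Vehicle cells at low and at high C1q.

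The difference was present at each level of C1q and of depth. In the lowest, middle and highest range of C1q the per-cell medians were 0.731%, 0.863% and 1.19% in DHT and 0.290%, 0.322% and 0.352% in Vehicle, and the list's median log2 ratio was 1.71, 1.80 and 2.18. In cells with 5000 to under 20000, 20000 to under 40000 and at least 40000 UMIs it was 1.98, 1.66 and 1.82. Irf7 was at 168 and 9.97 CPM in the lowest C1q range and 350 and 20.5 CPM in the highest.

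Genes on a list that joins interferon-gamma-linked GTPases with class I antigen presentation were higher as a group. Of 31 measured, 28 were higher and none lower, with a median log2 ratio of 1.88. This median covers both kinds of gene, and none was taken for class I alone. The log2 ratios of B2m, H2-K1 and H2-D1 were 1.45, 1.08 and 0.70, and those of H2-T23 and H2-Q7 were 2.05 and 3.54. For the GTPases Irgm1 and Ifi47 they were 1.97 and 2.17. B2m, the light chain of class I molecules, was at 2261 CPM in DHT and 830 in Vehicle, a ratio of 2.72 (2.66 to 2.79), and had a UMI in every member of both. The heavy chains H2-K1 and H2-D1 were at 847 and 401 CPM and at 974 and 600 CPM. The nonclassical H2-T23 was at 99.1 and 23.9 CPM and H2-Q7, a gene with close copies, at 31.5 and 2.70 CPM. Among the GTPases, Irgm1 was at 54.9 and 14.0 CPM and Ifi47 at 33.4 and 7.44. Of the proteasome genes, Psmb9 was at 71.9 and 42.9 CPM, and Psmb8 at 225 and 178 CPM did not reach 1.5-fold.

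Class II genes were carried by few cells. Cd74, the invariant chain, was at 186 CPM in DHT and 84.5 in Vehicle, H2-Aa at 38.9 and 24.1 and H2-Eb1 at 27.8 and 13.8; these were the 3 of 8 measured class II genes that were higher. For H2-Aa, 5 cells held 78.1% of the DHT and 88.0% of the Vehicle UMIs, and 10.1% and 13.8% of the cells had any. For Cd74, 5 cells held 60.1% and 77.0%. The dendritic cell genes Flt3, at 3.53 and 0.579 CPM, and Ccr7, at 8.28 and 2.99 CPM, had 81.6% and 95.7% of their DHT UMIs in 5 cells, while Ciita, which switches class II genes on, had 7 UMIs in DHT and 1 in Vehicle. Most UMIs of these genes thus lay in a few cells. Without each gene's 5 leading cells in each library, the log2 ratio of Cd74 went from 1.14 to 1.93. That of H2-Aa went from 0.69 to 1.55, with 118 UMIs left in DHT and 30 in Vehicle, and that of H2-Eb1 from 1.01 to 1.84. Ccr7 kept 5 UMIs in DHT and 0 in Vehicle, and its log2 ratio went from 1.47 to 0.31. Called doublets held 37.4% of the DHT UMIs of H2-Aa, 12.6% of those of Cd74, 73.5% of those of Flt3 and 94.8% of those of Ccr7. Without them the log2 ratio of Ccr7 was -2.78. With C1q of at least 0.1% the log2 ratios of H2-Aa and H2-Eb1 were -1.15 and -1.14, and in cells with 20000 to 60000 UMIs those of H2-Aa, H2-Eb1 and Cd74 were -1.38, -1.08 and -0.25. By contrast Ctss, the cathepsin that processes the invariant chain, was at 1022 and 725 CPM in nearly every cell.

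Chemokines were higher as a group, some of them from few cells. Of 19 measured, 12 were higher and none lower, with a median log2 ratio of 1.19. Pf4, a platelet chemokine also made by macrophages, was the most abundant at 2751 CPM in DHT and 1474 in Vehicle. The monocyte attractants Ccl7 and Ccl12 were at 140 and 36.8 CPM and at 26.9 and 7.05 CPM. Ccl2, of the same cluster, was at 454 and 302 CPM, a ratio of 1.5 (1.44 to 1.57) at the edge of the size limit, and 11 of 20 alternatives put it below that limit. Ccl6 was at 145 and 63.5 CPM, and 3 of 20 alternatives put it below 1.5-fold. Ccl5, which attracts T cells and monocytes, had the highest ratio of all genes compared, with 123 CPM in DHT and 1.26 CPM (13 UMIs) in Vehicle, 98.2-fold (57.3 to 185). Only 10.8% of DHT members had a UMI of it, 1 cell held 38.2% of the DHT UMIs and 5 cells 81.7%. Called doublets held 21.7% of them (372 of 1712). In cells with 5000 to under 20000 UMIs the levels were 46.7 and 22.6 CPM. Cxcl10, an interferon-induced attractant of T cells, was at 98.6 and 24.8 CPM, but 5 cells held 92.6% of the Vehicle UMIs, and in the lowest range of C1q the order was reversed at 23.3 and 48.1 CPM, as it was in cells with 20000 to under 40000 UMIs, at 110 and 125 CPM. Without the 5 leading cells of each library its log2 ratio went from 1.99 to 5.06. Cxcl9 had 77 UMIs in 11 DHT cells and none in Vehicle, at least 19.1-fold higher against a floor of 3 counts per library.

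Receptors for chemokines and chemotactic peptides were mostly higher, with 1 prominent exception. Of 10 measured, 7 were higher and 1 lower. The formyl peptide receptors Fpr1 and Fpr2 were at 42.0 CPM in DHT and 16.5 in Vehicle and at 65.0 and 26.6 CPM, and Ccr2, the receptor of Ccl2 on monocytes, at 88.9 and 58.2, with a log2 ratio of -0.02 in cells with 20000 to 60000 UMIs. Cx3cr1, the fractalkine receptor of monocytes and macrophages (chromosome 9, 119901616-120069879), was at 42.2 CPM in DHT and 83.0 in Vehicle, 1.96-fold lower. A UMI of it was seen in 23.4% of DHT and 53.0% of Vehicle members. It was lower in DHT in each range of C1q and each range of depth, with log2 ratios from -1.63 to -0.40.

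Complement genes were higher in part. Of 14 measured, 7 were higher and none lower, with a median log2 ratio of 0.59; C1qa, which helped choose the cells, is among the 7. Cfb, factor B of the alternative pathway, was at 32.2 CPM in DHT and 2.32 in Vehicle, 13.9-fold (9.21 to 21.9), and was seen in 22% and 5.17% of the cells. C3, the central component, was at 113 and 56.0 CPM and its receptor C3ar1 at 498 and 291. Cfp, properdin, was at 440 and 285 CPM. C5ar1, the receptor of the C5a peptide, was at 512 and 382 and did not reach 1.5-fold.

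The Fc receptors Fcgr1 and Fcgr4 were higher while Fcgr3 and the signalling adaptors were nearly level. Of 25 genes on the list, 11 were higher and none lower. Fcgr1, the high-affinity receptor for IgG, was at 169 CPM in DHT and 39.6 in Vehicle, 4.26-fold (3.83 to 4.74), and seen in 77.5% and 57.8% of cells. Fcgr4, another activating receptor, was at 21.1 and 5.89 CPM and Siglec1, a sialic acid receptor of macrophages induced by interferon, at 28.1 and 2.41. The inhibitory Fcgr2b was at 58.0 and 35.7 CPM. Fcgr3 was at 116 and 104 CPM, and the signalling adaptors Fcer1g and Tyrobp were at 1524 and 1368 and at 1675 and 1765 CPM. Trem2, a lipid receptor that signals through Tyrobp, was at 337 and 399.

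Genes of dying cell uptake were higher in part. Of 25 measured, 7 were higher and 1, Pros1, lower, and the median log2 ratio was 0.34. Mertk, the receptor tyrosine kinase of uptake, was at 28.1 CPM in DHT and 13.7 in Vehicle, and its ligand Gas6 at 9.72 and 4.93. Its other ligand, Pros1, was at 2.45 and 5.02 CPM, 34 and 52 UMIs. The scavenger receptors Msr1 and Cd36, at 769 and 535 and at 450 and 317 CPM, did not reach 1.5-fold, and Axl was at 9.94 and 9.75. For Thbs1 and Marco, 5 cells held 72.7% and 64.1% of the DHT UMIs. Without the 5 leading cells of each library their log2 ratios went from 1.92 to 1.76 and from 0.75 to 1.54. With C1q of at least 0.1% Marco had a log2 ratio of -0.26.

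Genes linked with alternative activation were higher in part. Of 16 measured, 7 were higher and none lower. Mrc1, the mannose receptor, was at 109 CPM in DHT and 45.5 in Vehicle, 2.41-fold (2.17 to 2.67), and the ratio was above 1 in each range of C1q and each range of depth. In cells with 5000 to under 20000 UMIs its interval, 0.942 to 1.91, included 1. Arg1, arginase, was at 96.5 and 25.7 CPM, 3.76-fold (3.29 to 4.30), and Folr2, a folate receptor, at 88.9 and 49.3. Chil3, also abundant in neutrophils and monocytes, was at 37.2 and 8.98 CPM, 5.05% and 3.34% of its level over all barcodes. Pparg, a lipid-sensing factor, was at 19.4 and 26.6 and Retnla had no UMI.

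Inflammatory genes were higher in part. Of 34 measured, 13 were higher and none lower. Il1rn, the interleukin-1 receptor antagonist, was at 116 CPM in DHT and 35.7 in Vehicle, and Acod1, which makes itaconate, at 109 and 48.3. Marcksl1 was at 225 and 88.8 CPM. Saa3, a serum amyloid, was at 36.1 and 7.82 CPM with 57.4% of the DHT UMIs in 5 cells, and Il1b at 9.72 and 1.55 with 86.7%. Sod2, Nfkb1 and Icam1 did not reach 1.5-fold, at 453 and 431, 123 and 118, and 68.9 and 69.9 CPM.

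**Figure D3:**
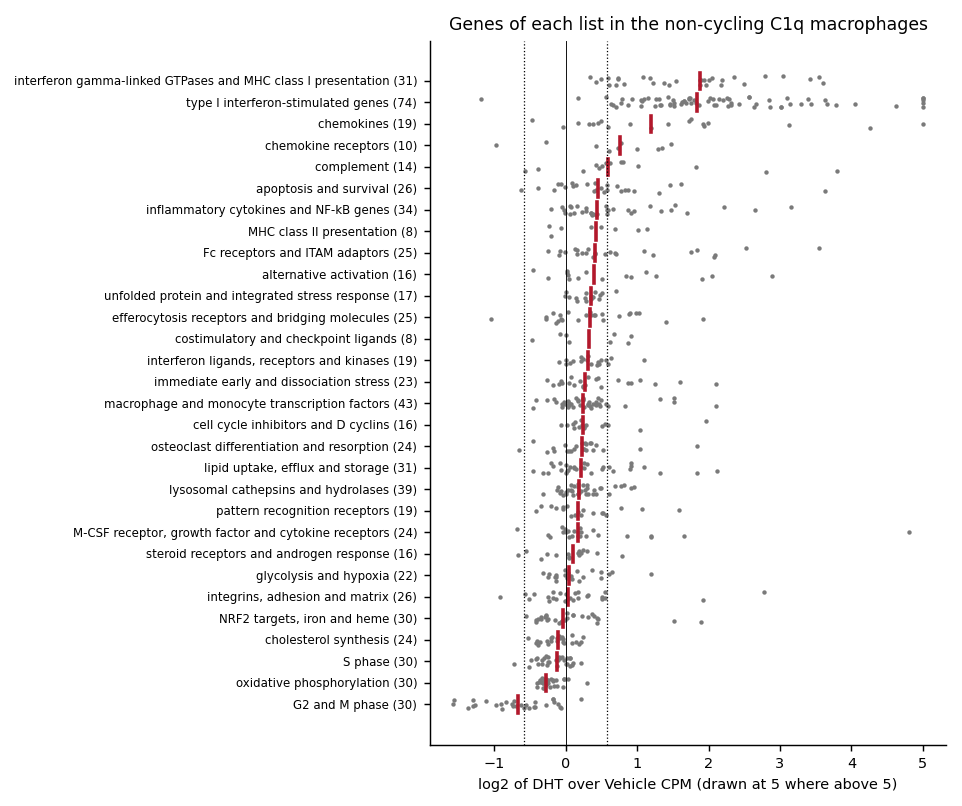
The log2 ratio of DHT over Vehicle CPM (x axis) for each measured gene of each list (grey points) with the list's median (red bar) and the number of genes in parentheses; dotted lines mark 1.5-fold. The medians run from 1.88 for the interferon-gamma and class I list and 1.84 for the type I list to -0.67 for G2 and M phase.

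Among transcription factors of macrophages, 6 of 43 were higher and none lower, against 7.19% higher among all genes at this limit. The list's median log2 ratio was 0.25. Maf, a factor of mature macrophages that drives C1q genes, was at 288 CPM in DHT and 101 in Vehicle, 2.85-fold (2.66 to 3.06). Nr1h3, the oxysterol receptor LXR alpha, was at 46.9 and 18.8 CPM and Klf2 at 53.2 and 29.9. The lineage factor Spi1 was at 497 and 483 and Irf8 at 81.6 and 73.6. On the lipid list 9 of 31 genes were higher. Among these, Abca1 and Abcg1, which export cholesterol, were at 44.3 and 20.8 and at 10.5 and 2.41 CPM. Npc2, the lysosomal cholesterol carrier, was at 1352 and 715, and Apoc2 at 36.1 and 10.0. None of 24 genes of cholesterol synthesis reached 1.5-fold in either direction.

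Of 39 measured lysosomal genes, 6 were higher, against 7.19% of all genes at 2 CPM. Lgmn, legumain, was at 542 CPM in DHT and 279 in Vehicle, Grn, progranulin, at 845 and 478, and Ctsc, cathepsin C, at 442 and 274. The most abundant cathepsins, Ctsb and Ctsl, were at 2820 and 2026 and at 2747 and 2615. Of the osteoclast genes, 2 of 24 were higher, against 7.19% higher among all genes at 2 CPM. They were Mmp9, a gelatinase, at 361 and 101 CPM, and Mmp14, its membrane-bound relative, at 368 and 179. Nfatc1, the master factor of osteoclasts, was at 63.8 and 71.9 and Tnfrsf11a, the receptor RANK, at 240 and 241. Mmp12, macrophage elastase, was lower at 57.5 and 109 CPM, with 47.8% and 46.2% of its UMIs in 5 cells.

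The cells were chosen for low Mki67 and Top2a, yet other genes of division differed among them. Of 30 genes of G2 and M phase, 16 were at least 1.5-fold lower in DHT and none higher, against 3.42% lower among all genes, with a median log2 ratio of -0.67. Cdkn3, a phosphatase of late cell cycle, was at 6.26 CPM in DHT and 26.4 in Vehicle, 4.21-fold lower. Cenpa, the centromere histone, was at 17.6 and 52.2 CPM, Ccnb2, a mitotic cyclin, at 17.9 and 52.9, and Birc5, survivin, at 29.4 and 75.6. Ube2c, which marks mitotic proteins for destruction, was at 36.4 and 78.5. The list made up a median of 0.0288% of a DHT cell's UMIs and 0.0472% of a Vehicle cell's. Thinned to 5000 UMIs per cell both medians were 0.04%, which is 2 UMIs, and the upper quartiles were 0.06% and 0.1%. Of 30 genes of S phase 1 was lower, against the same 3.42% of all genes. Pcna, the clamp of replication, was at 250 and 239 CPM. The S phase list made up a median of 0.0963% of a DHT cell's UMIs and 0.159% of a Vehicle cell's (0.1% and 0.16% at 5000 UMIs per cell). Mki67, used in the choice, was at 23.7 and 54.9. This difference depended on where the limit lay: with Mki67 and Top2a together under 0.01% of UMIs, the median of the list was -0.09, with 7 genes lower and 1 higher.

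Other genes among the lowest were not of the cell cycle. Angptl2, a secreted angiopoietin-like protein, was at 11.6 CPM in DHT and 33.9 in Vehicle, seen in 17.1% and 50.9% of the cells. The microsomal glutathione transferases Mgst2 and Mgst3 were at 13.6 and 29.5 and at 25.9 and 57.0 CPM, and Psd3 at 39.2 and 83.3. Nptx1 was at 5.69 and 20.4, but 5 cells held 77.7% of its Vehicle UMIs and it was higher in DHT in the highest range of C1q and, with a log2 ratio of 0.36, where the limits were applied to thinned cells. Genes of oxidative phosphorylation were slightly lower together: none of 30 reached 1.5-fold, and 28 were below an even ratio with a median log2 ratio of -0.27. Cox4i1 was at 793 and 940 CPM.

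**Figure D4:**
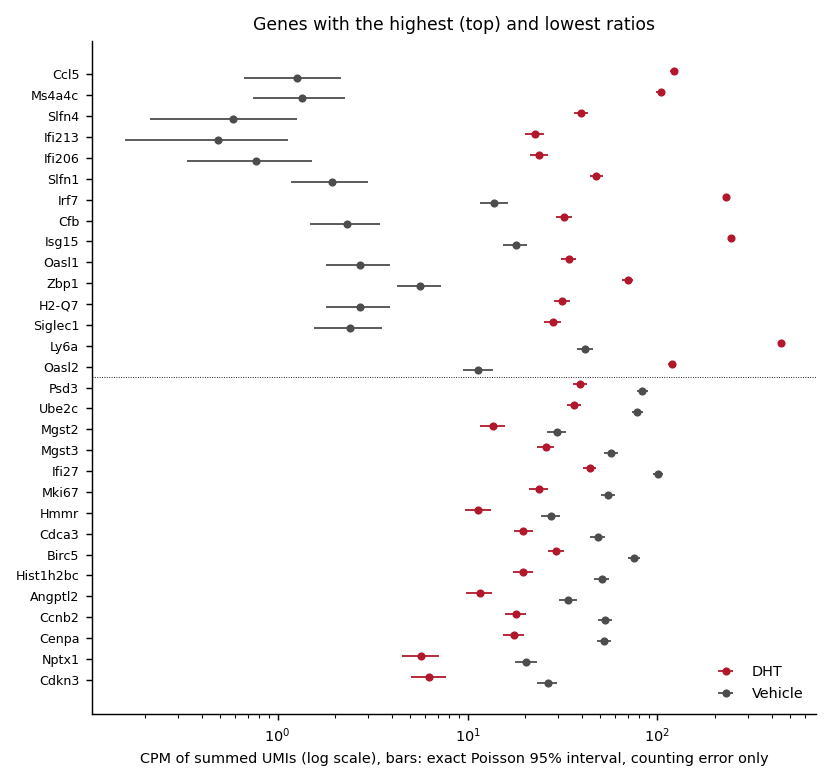
Level (x axis, CPM, log scale) of the 15 genes with the highest and the 15 with the lowest ratio of DHT to Vehicle among genes with at least 20 CPM, in DHT (red) and Vehicle (grey) members, with exact Poisson intervals that cover counting error only. The highest run from Ccl5 (123 and 1.26 CPM) to Oasl2 (120 and 11.4), the lowest from Cdkn3 (6.26 and 26.4) to Psd3 (39.2 and 83.3).

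The components that make, sense and pass on interferon were close to even. Of 19 measured ligands, receptors and kinases, 3 were higher and none lower. Ifnar1 and Ifnar2, the receptor of type I interferon, were at 116 and 91.1 CPM and at 150 and 148, and Jak1 and Tyk2, its kinases, at 129 and 111 and at 25.8 and 21.8. Tlr7, a sensor of single-stranded RNA, was at 26.7 and 17.1 CPM, and Tlr3, which senses double-stranded RNA, at 4.10 and 1.93. Ifnb1, interferon beta, had 3 UMIs in 1 DHT cell and none in Vehicle, at the floor, so no ratio is given. Among androgen and glucocorticoid response genes Tsc22d3 was at 22.8 and 13.2 CPM and Fkbp5 at 27.4 and 34.6. On that list 1 of 16 was higher and 1 lower, against 7.19% and 3.42% of all genes at 2 CPM.

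The other ranges of cells come from the same 2 libraries, so their values are set beside those of the members as a description. Of the members' 299 higher genes, 122 (40.8%) were also higher in the cycling C1q cells, which is 80.8% of the 151 called there (2.28% of 6631 genes); 222 of the 299 were compared there. In the C1q-low non-cycling cells 175 (58.5%) were also higher, of 250 compared, which is 42.4% of the 413 called there. Of the 71 lower genes, 9 were also lower in the cycling C1q cells, 12.7% of the members' calls and 9 of the 18 called there (0.271%). In the C1q-low non-cycling cells 8 were also lower, of 17 called there, and 2 went the other way, Lsp1 and Cx3cr1. The type I list had a median log2 ratio of 1.48 in the cycling C1q cells, with 64 of 72 genes higher, and 1.91 with 66 of 73 in the C1q-low non-cycling cells, where 6.24% of all genes were higher and 0.257% lower. The interferon-gamma and class I list had medians of 0.89 and 1.25 there and 1.88 in the members; whether these differ was not tested. In level, the ranges were ordered differently by library. In DHT, Irf7 was at 230 CPM in the members, 76.6 in the cycling C1q cells, 68.2 in the C1q-low non-cycling cells and 28.2 to 43.6 in the other ranges. In Vehicle it was at 13.8 CPM in the members and 14.1 in the cycling C1q cells.

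**Figure D5:**
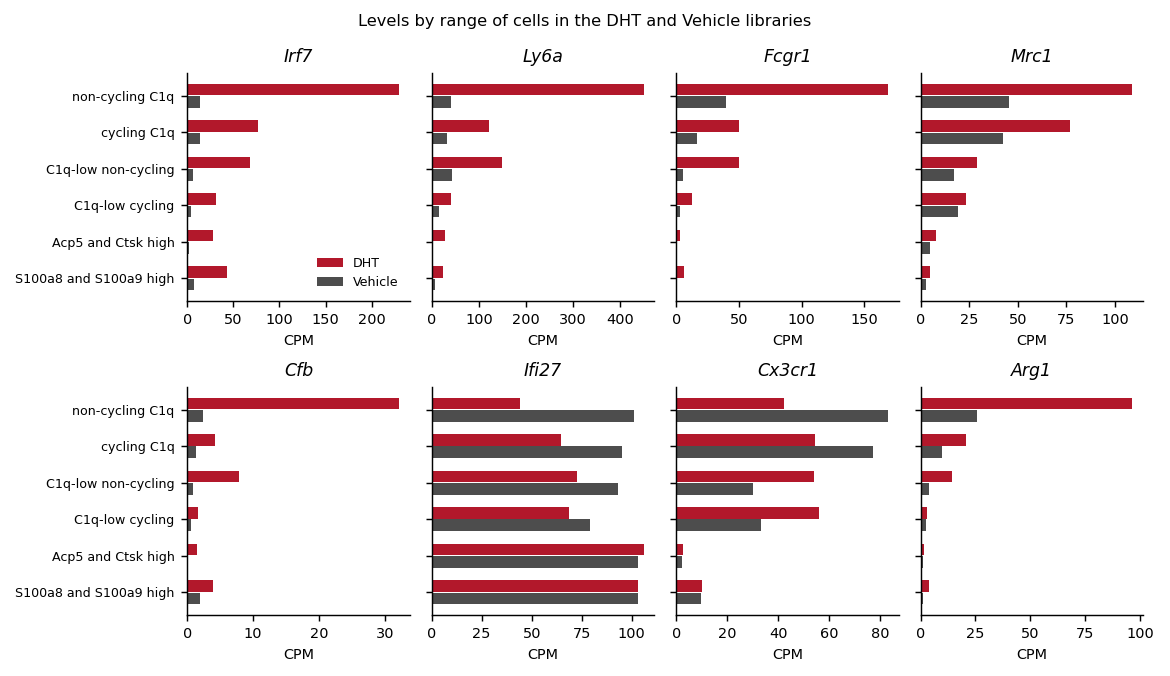
Level (x axis, CPM, linear from 0) of 8 genes in the 6 ranges of cells cut by the same limits (y axis), in DHT (red) and Vehicle (grey), 1 library each. Irf7, Ly6a, Fcgr1, Mrc1, Cfb and Arg1 are highest in the non-cycling C1q macrophages of DHT; Cx3cr1 is lower with DHT in both C1q ranges (42.2 and 83.0 CPM in the members) and higher in the C1q-low ranges.

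Several genes reached their highest level in the DHT members. Fcgr1 was at 169 CPM there, against 49.8 in the C1q-low non-cycling cells of the same library. Arg1 was at 96.5 CPM against 20.5 and 14.4, and Cfb at 32.2 against 4.25 and 7.81. Ccl5 was not among them, at 123 CPM in the members and 185 in the C1q-low non-cycling cells. Cx3cr1 differed in direction between ranges, at 42.2 CPM in DHT and 83.0 in Vehicle members, 54.4 and 77.2 in the cycling C1q cells, and 53.9 and 30.1 in the C1q-low non-cycling cells. In the C1q-low cycling cells, where it was also higher in DHT, 2.48% of all genes were higher and 0.33% lower, and in the cells high in S100a8 and S100a9 1.82% and 0.12%.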

How the data were processed

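The deposited files hold, per the labels, 1 feature-barcode matrix of UMI counts for each library, made by the authors with Cell Ranger 7.0.1; the submitters' processing notes name the builds mm10 and GRCh38, with no role given, and the features are mouse genes. The values are whole-number counts with no normalization. Each gene's counts were added up over a set of cells and scaled by the set's total UMIs (CPM). With 1 library per treatment no test was run; a gene was called by size, at 1.5-fold or more, when it had 20 CPM in either library (2 CPM for members of lists). Levels have exact Poisson intervals, ratios exact conditional binomial intervals and shares Clopper-Pearson intervals. Per-cell medians have binomial intervals from the ranks of the cells, which cover only the spread among cells of 1 library. Where a library had no count, the ratio used 3 counts per library in its place. Scrublet (in scanpy 1.11.5, expected rate 0.08) scored doublets, which were kept; it marked 203 (2.57%) and 156 (1.78%) of scored barcodes. The calculations were tested on simulated data. Positions are from GENCODE M21, which held 32235 of 32285 gene IDs, and promoters from RefSeq.

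The cells, gene lists and tests were chosen with earlier results of these data known. Named genes were the 15 highest and 15 lowest by ratio (leaving out mitochondrial, ribosomal, immunoglobulin and predicted genes), the highest, lowest and most abundant of each list, and members of small panels; others named were chosen after their values were seen. Alternatives were other limits for cells, scaling by TMM (edgeR 4.0.16) or by median of ratios, the mean CPM of single cells, other floors, a depth range, subtraction of free RNA, thinning and removal of called doublets. Chosen after seeing the data were leaving out each gene's 5 leading cells, applying the limits to thinned cells and giving both libraries an equal mix of the 3 C1q ranges. Some genes are not reported here.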

Additional observations from a re-analysis of the deposited data

Results flagged for a closer look

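Cx3cr1, the fractalkine receptor, was lower with DHT in the members (log2 ratio -0.98) and higher in the C1q-low non-cycling cells (0.84) and the C1q-low cycling cells (0.75). Lsp1, a leukocyte actin-binding protein, was at 37.7 CPM in DHT and 58.0 in Vehicle members (-0.62) and at 146 and 95.8 CPM in the C1q-low non-cycling cells (0.61). The class II gene H2-Aa was higher with DHT in the members (0.69), and lower in the C1q-low cycling cells (-1.02) and in the cells high in S100a8 and S100a9 (-0.66), and H2-Eb1 was higher in the members (1.01) and lower in the C1q-low cycling cells (-0.99). Of the H2-Aa UMIs of the members, 78.1% in DHT and 88.0% in Vehicle were in 5 cells, and with C1q of at least 0.1% H2-Aa and H2-Eb1 were lower with DHT in the members too (-1.15 and -1.14). Each of these was called for size in opposite directions in 2 ranges of cells, with 1 library per treatment, and the difference between ranges was not tested.

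Barcodes below the UMI limit that met the same 4 limits on genes also differed. In C1q-positive barcodes with 800 to under 5000 UMIs, 171 in DHT and 22 in Vehicle, the type I interferon list made up a median of 0.754% of the UMIs in DHT and 0.265% in Vehicle. These barcodes enter no comparison above, and their 50589 Vehicle UMIs give about 1 count for each 20 CPM.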

How the results depend on the processing

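The direction of each of the 5 main results was the same under every alternative run. The share ratio of 2.21 was 2.73 and 3.14 with C1q limits of 0.06% and 0.1%, and 2.82 with Mki67 and Top2a under 0.01%. The 299 higher genes were 168 at a floor of 50 CPM and 770 at 2 CPM. The 71 lower genes were 148 by the mean CPM of single cells, 107 in cells with 20000 to 60000 UMIs, 120 at a floor of 10 CPM, 30 at 50 CPM and 366 at 2 CPM. At the floor of 50 CPM, 41 of 43 measured type I genes were higher; other alternatives gave 70 or 71. Fewer or more genes were measured at the other floors; the other causes were not tested. With free RNA subtracted, using the markers of free RNA with at least 20 CPM over all barcodes other than S100a8, S100a9, Lcn2 and Mmp8, 300 genes were higher and 78 lower. TMM scaling moved the median log2 ratio from 0.011 to -0.006 and gave 283 and 78. Over the genes named in the text, 2758 of 2880 values kept their direction and their side of 1.5-fold, 105 crossed 1.5-fold and 17 reversed. The reversed log2 ratios were, with C1q of at least 0.06%, H2-Aa -0.25 and H2-Eb1 -0.06. With at least 0.1% they were Ccr7 -0.12, Flt3 -0.45, H2-Aa -1.15, H2-Eb1 -1.14 and Marco -0.26. In cells with 20000 to 60000 UMIs they were Ccr2 -0.02, Cd74 -0.25, H2-Aa -1.38 and H2-Eb1 -1.08. By mean CPM of single cells they were Ccr7 -2.39, Flt3 -0.05 and H2-Aa -0.29. The rest were Ccr7 -2.78 without called doublets, S100a9 -0.32 with free RNA subtracted and Nptx1 0.36 with the limits applied to thinned cells. Called doublets and single cells' shares bear on Ccr7, Flt3 and H2-Aa as given above; the cause of each reversal was not tested. No paired analysis was possible because each treatment has 1 library, and none could be left out. Depth limits genes with few UMIs, since Vehicle members held 10354790 UMIs in all.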

Other observations

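On a list of genes of cell death and survival, described by no comparison above, 9 of 26 measured were at least 1.5-fold higher and 1 lower. Among all genes at 2 CPM, 7.19% were higher and 3.42% lower. The 9 held promoters of death and inhibitors of it. At the limit of 20 CPM, 2 genes of the list were called higher and 1 lower, so most of the 9 were at low levels. Mcl1, which keeps myeloid cells alive, was at 466 CPM in DHT and 329 in Vehicle, and Cflar, an inhibitor of caspase-8, at 101 and 69.6; neither reached 1.5-fold. Fas, a death receptor, was at 22.8 and 13.8 CPM, Mlkl, the pore of necroptosis, at 16.1 and 8.79, and Ripk3, its kinase, at 26.0 and 40.3. The inhibitors of the cell cycle Cdkn1a and Btg1 were at 324 and 222 and at 381 and 253 CPM. Of 17 genes of the unfolded protein and integrated stress response, 16 were above an even ratio with a median log2 ratio of 0.35, and 1, Syvn1, reached 1.5-fold at 25 and 15.4 CPM. Of 30 genes of the NRF2, iron and heme list 2 were higher and none lower, against 7.19% and 3.42% of all genes at 2 CPM. Hmox1, heme oxygenase, was at 564 and 410 CPM and Gclm, of glutathione synthesis, at 363 and 534.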
